A study of Homo sapiens with 6 samples.

Results

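Nuclear-encoded mitochondrial gene RNAs that came down with PD-L1 are described here, 48 of the 3152 RNAs that the authors list as bound. They were chosen by gene name alone. The names are those of mitochondrial ribosomal proteins (MRPL, MRPS), inner membrane carriers (SLC25), import machinery (TIMM, TOMM), respiratory chain and ATP synthase genes (NDUF, COX, COA followed by a digit, ATP5, UQC, SDH), mitochondrial gene expression factors (MTERF, MTIF, MTRF, GFM, TFB and names ending in ARS2) and pyruvate dehydrogenase genes (PDH, PDK). Symbols on the authors' list of DNA damage genes were to be left out, which removed 0 RNAs. The 48 divide into 6 ribosomal protein RNAs, 14 carrier RNAs, 4 import RNAs, 11 RNAs of the respiratory chain and its assembly, 12 gene expression RNAs and 1 pyruvate dehydrogenase RNA.

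RNA was immunoprecipitated from a single cell line, MDA-MB-231, derived from a triple-negative human breast cancer. An antibody to PD-L1, which sits in the cell membrane and binds PD-1 on T cells, gave 3 libraries, and an IgG isotype control gave 3, with formaldehyde crosslinking in both groups and no other treatment named in the labels. The labels call the libraries repeats and do not say whether they came from separate cultures, so the spread behind the p-values may be technical only. Of the markers of other cell types, 1 of 14 epithelial genes (CLDN4) and 0 of 9 immune cell genes were listed, in a table that holds enriched RNAs and is no measure of expression.

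Mitochondria carry a small genome of their own, and the great majority of their proteins are encoded in the nucleus, translated in the cytosol and imported through the TOM and TIM complexes. The inner membrane holds the respiratory chain, whose complexes combine subunits from both genomes and need dedicated assembly factors, and the SLC25 carriers, which move metabolites across it. A separate set of nuclear-encoded factors transcribes mitochondrial DNA and runs the mitochondrial ribosome.

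Each value is the authors' sum of peak scores for an RNA in a library, and an RNA without a scored peak stands at 0. The smallest score above 0 anywhere in the table was 1.81. The number of reads is unknown. Over all listed RNAs the scores summed to 123921 to 217732 in the PD-L1 libraries and to 8353 to 19288 in the IgG libraries. The 48 mitochondrial RNAs made up 0.954 to 1.12% of the PD-L1 sums and 0.532 to 0.870% of the IgG sums. PD-L1 repeat 3 stood apart from the other PD-L1 libraries. Among the mitochondrial RNAs PD-L1 repeats 1 and 2 had a Spearman correlation of 0.937, repeats 1 and 3 of 0.754, and repeats 2 and 3 of 0.687, a description over 48 RNAs of the same libraries.

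All 48 mitochondrial RNAs had higher scores with PD-L1 than with IgG and passed the test (limma on log2(score + 1), Benjamini-Hochberg adjustment over all 3152 RNAs, threshold 0.05). The test called 97.7% of all listed RNAs higher, and the table was kept by the authors for a fold of at least 5 on these same libraries, so the count does not set the mitochondrial RNAs apart. The groups did not overlap in 46 of the 48, with every PD-L1 score the higher, against 95.9% of the table, and the exceptions were TIMM21 and COX14. The median difference was 3.62 on the log2(score + 1) scale, from 2.29 for UQCR10 to 6.39 for COA6, against a median of 3.42 over the table. Which RNAs lay at the ends of that range changed with the pseudocount and the scale: with rescaled libraries they were SLC25A37 (-0.99) and MTRF1 (5.35). Raising each 0 to the smallest score in the table gave medians of 3.22 and 3.05. The scores themselves were moderate. The median of the mean PD-L1 scores was 25.9, against 31.2 over the table, and 1 mitochondrial RNA, TOMM20L, was among the 315 RNAs of the table with the highest mean PD-L1 score. By the difference, 3 of the 48 were among the top 315 (COA6, MTRF1 and SLC25A27).

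A total of 16 mitochondrial RNAs (33.3%) had a score of 0 in all 3 IgG libraries, against 31.7% of the table. By library, 38 of the 48 were at 0 in IgG repeat 1, 22 in IgG repeat 2 and 28 in IgG repeat 3. No fold is given for the 16 RNAs at 0 throughout. In the other 32 the ratio of group means ran from 5.51 for TARS2 to 148 for COA6, with a median of 11.2 against 10.5 over the table.

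The calls depended on the scale given to the libraries. When the libraries were brought to equal sums over all listed RNAs (rescaled libraries below), 18 of the 48 passed, against 31.4% of all listed RNAs higher and 1.9% lower, and the median difference of the mitochondrial RNAs was 1.91 against 1.76 over the table. These 18 were all 16 RNAs at 0 with IgG plus COA6 and SLC25A27, and they also passed under every other setting in which they were tested. The filter on low scores took out SLC25A43 and TOMM6 untested. Rescaling multiplies a library by a factor, so scores of 0 stay at 0 while IgG scores above 0 rise. The scaling thus favours the 16 RNAs at 0 with IgG. Smaller pseudocounts favour them too, as for MTRF1 at 6.17, 9.48 and 12.8 with pseudocounts of 1, 0.1 and 0.01. Their IgG scores have no spread under any setting, so their passing throughout is no independent sign of stronger enrichment. With rescaled libraries SLC25A37 (-0.99), YARS2 (-0.89), UQCR10 (-0.18) and CARS2 (-0.12) had negative differences without passing, though all were higher with PD-L1 as deposited. The listed RNAs were kept at 5-fold or more, so equal sums take out the excess that they share. A negative difference is relative to these sums, and its sign did not always follow the size of the difference as deposited. SLC25A37, YARS2 and UQCR10 had small ones (2.52, 2.60 and 2.29), but CARS2 had 3.30. TIMM21, TIMM8B and TARS2, all at 0 in IgG repeat 1, had 2.30, 2.68 and 3.14 as deposited. With rescaled libraries these RNAs stayed positive, at 0.94, 0.49 and 0.78. UQCR10 turned negative though at 0 in IgG repeat 3. What sets the sign was not tested. Without PD-L1 repeat 3, 39 of the 48 passed, with a median of 3.86.

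**Figure D1:**
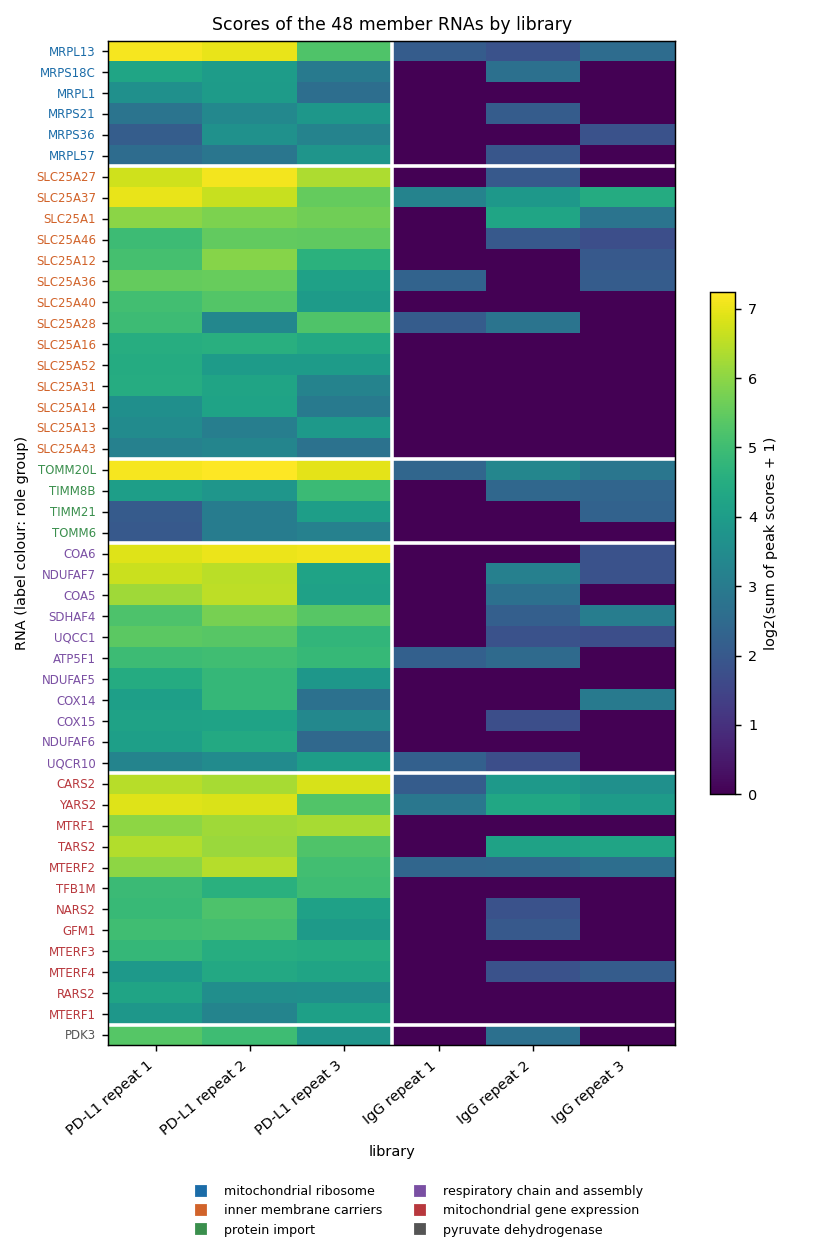
Scores of the 48 mitochondrial RNAs in the 6 libraries as log2(sum of peak scores + 1), in role groups and ordered within each by mean PD-L1 score. In 46 of the 48 rows every PD-L1 score is above every IgG score, and 16 RNAs are at 0 in all 3 IgG columns. PD-L1 scores under 10 occur in at least 1 library for 17 of the RNAs.

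The respiratory chain group was made up mostly of assembly factors. Of its 11 RNAs, 9 encode proteins that help build the complexes and are absent from the finished enzyme, and 2 encode structural subunits, a split made after the values were seen. COA6, which takes part in copper delivery to cytochrome c oxidase, scored 116.7, 129.8 and 134 in the PD-L1 libraries and 0, 0 and 2.57 in the IgG libraries. All 3 of its PD-L1 scores were close together and far above IgG. Its difference was 6.39 ± 0.56 (SE, adjusted p = 0.000165 in limma).

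COA5, a second assembly factor of cytochrome c oxidase, scored 72.5, 91.4 and 16.8 with PD-L1 against 0, 5.40 and 0 with IgG, a difference of 4.74 ± 0.98 (SE, adjusted p = 0.00417 in limma). NDUFAF7, the methyltransferase that acts in complex I assembly, scored 100.5, 89.3 and 17.4 against 0, 7.98 and 2.57, a difference of 4.12 ± 1.02 (SE, adjusted p = 0.00838 in limma). In both, PD-L1 repeat 3 was the lowest of the PD-L1 libraries by a wide margin and yet above every IgG library. SDHAF4, an assembly factor of succinate dehydrogenase, was steadier, at 35.9, 53.5 and 39.9 against 0, 3.60 and 7.46 (difference 3.68 ± 0.80 SE, adjusted p = 0.00506 in limma). With rescaled libraries COA5 (3.19), NDUFAF7 (1.88) and SDHAF4 (1.43) did not pass.

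NDUFAF5 and NDUFAF6, both needed for complex I, were at 0 in all IgG libraries, with PD-L1 scores of 20.8, 27.3 and 13.3 and of 15.9, 19.9 and 4.43. UQCC1, which assists cytochrome b of complex III, had a mean PD-L1 score of 35.9 ± 8.64 (SD, n = 3), and COX15, which makes heme A, 14.6 ± 4.51. COX14, which acts on newly made COX1, scored 16.1, 27.6 and 5.49 with PD-L1 against 0, 0 and 6.69 with IgG. Its groups overlapped, since PD-L1 repeat 3 lay below IgG repeat 3. The difference of 2.90 ± 0.98 (SE, adjusted p = 0.0266 in limma) did not pass without PD-L1 repeat 1 (2.79), PD-L1 repeat 2 (2.42), IgG repeat 1 (2.41) or IgG repeat 2 (2.41).

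The structural subunits were ATP5F1, the b subunit in the stalk of ATP synthase, and UQCR10, a small subunit of complex III. ATP5F1 scored 30.1, 31.4 and 27.6 with PD-L1 against 3.63, 4.63 and 0 with IgG, with the 3 PD-L1 libraries nearly equal (difference 3.37 ± 0.69 SE, adjusted p = 0.00407 in limma). UQCR10 scored 8.68, 10.3 and 15.2 against 3.63, 2.31 and 0. Its difference of 2.29 ± 0.63 (SE, adjusted p = 0.0124 in limma) did not pass without PD-L1 repeat 3 (2.08) and was negative with rescaled libraries (-0.18).

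Mitochondrial gene expression had 12 RNAs with a median difference of 3.77. MTRF1, a peptide chain release factor, scored 63.6, 72.8 and 77.8 with PD-L1 and 0 in every IgG library. Its fitted difference was 6.17 ± 0.26 (SE, adjusted p = 5.44e-05 in limma), a size that depends on the pseudocount. It had the highest PD-L1 scores of the 16 RNAs that were at 0 throughout with IgG. TFB1M, which methylates the small subunit ribosomal RNA, scored 29.9, 23.4 and 30.8 and was likewise at 0 with IgG, and GFM1, an elongation factor, scored 31.5, 33.0 and 14.3 against 0, 3.09 and 0. GFM1 did not pass with rescaled libraries (2.52).

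All 4 annotated genes of the MTERF family, whose products bind mitochondrial nucleic acids and act in transcription and ribosome assembly, were listed. MTERF1, the transcription terminator, scored 13.3, 8.70 and 16.3 and MTERF3 27.1, 21.6 and 20.9, both at 0 with IgG. MTERF2 scored 63.6, 85.6 and 32.2 against 4.23, 4.37 and 5.14, with the highest PD-L1 scores of the family, and it alone was scored in every IgG library. MTERF4, which acts with a methyltransferase on the large ribosomal subunit, scored 13.7, 19.8 and 17.9 against 0, 2.57 and 3.34. With rescaled libraries the difference of MTERF2 was 9.52e-05 and that of MTERF4 0.71, and neither passed.

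The group also held 5 of the synthetases that charge mitochondrial tRNAs. CARS2, for cysteine, scored 86.6, 77.0 and 110 with PD-L1 against 3.32, 13.9 and 11.3 with IgG (difference 3.30 ± 0.53 SE, adjusted p = 0.00159 in limma). Its highest score was in PD-L1 repeat 3. YARS2, for tyrosine, scored 116, 112 and 37.9 against 6.35, 19.03 and 14.7 (2.60 ± 0.61 SE, adjusted p = 0.00675 in limma), and here repeat 3 was the lowest. Differences of both were negative with rescaled libraries, at -0.12 and -0.89. TARS2, for threonine, scored 83.9, 70.2 and 37.2 against 0, 16.97 and 17.8, and had the lowest ratio of group means of the 32 RNAs scored with IgG, 5.51. Its difference of 3.14 ± 1.20 (SE, adjusted p = 0.0408 in limma) did not pass without PD-L1 repeat 1 (2.91), repeat 2 (3.03) or repeat 3 (3.48). NARS2, for asparagine, had a mean PD-L1 score of 27.2 ± 9.84 (SD, n = 3), and RARS2, for arginine, 13.3 ± 3.90, the latter at 0 with IgG.

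**Figure D2:**
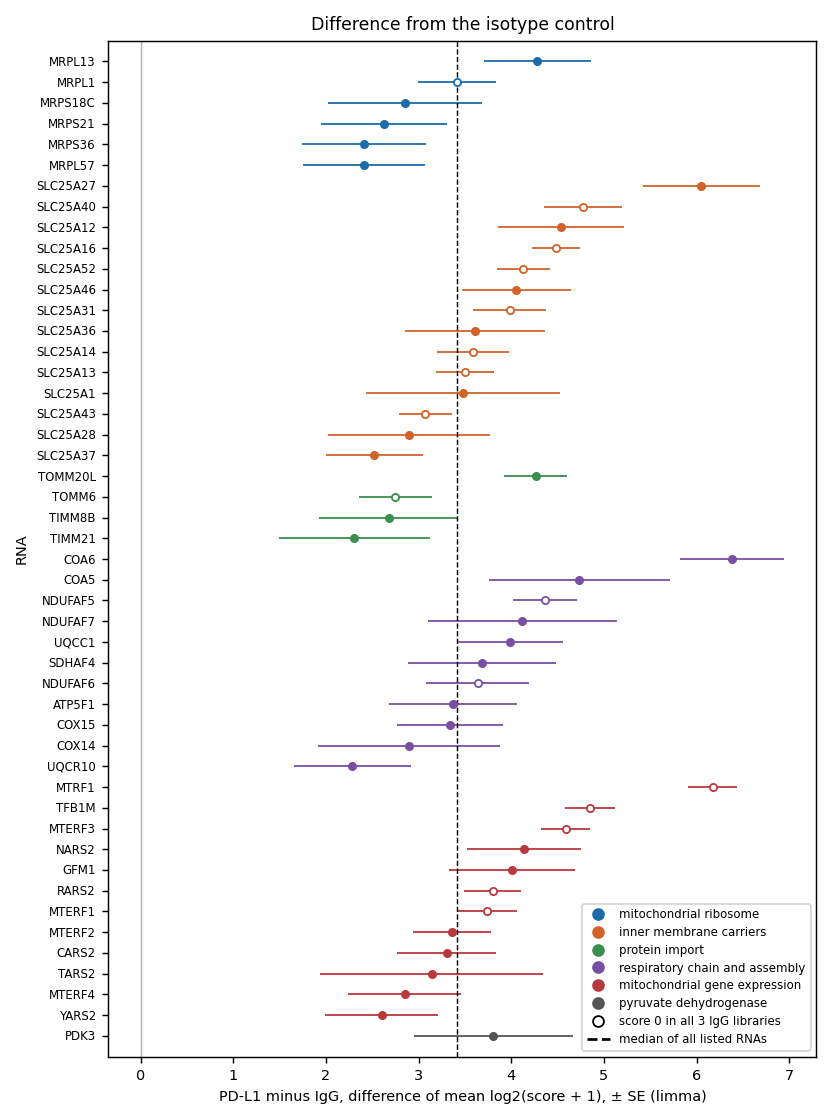
PD-L1 minus IgG difference of mean log2(score + 1) with its SE from limma for the 48 mitochondrial RNAs (3 libraries a group), open where the score was 0 in all 3 IgG libraries, with the table's median of 3.42 dashed. COA6 lies highest at 6.39 and UQCR10 lowest at 2.29, and the position of the 16 open points depends on the pseudocount.

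The inner membrane carriers were the largest group, with 14 RNAs and a median difference of 3.80, and 7 of them were at 0 in all IgG libraries. SLC25A27, an uncoupling protein best known from brain, scored 104, 137 and 81.1 with PD-L1 against 0, 3.09 and 0 with IgG. Its difference was 6.05 ± 0.63 (SE, adjusted p = 0.000300 in limma). SLC25A37, the iron importer mitoferrin 1, scored 126, 97.4 and 45.5 against 8.47, 13.6 and 21.1. It had the highest mean IgG score of the carriers, and its difference was 2.52 ± 0.52 (SE, adjusted p = 0.00417 in limma). It was negative with rescaled libraries (-0.99). SLC25A28, mitoferrin 2, scored 30.4, 9.25 and 37.2 against 3.32, 5.91 and 0, with repeat 2 the low one. It did not pass without PD-L1 repeat 1 (2.67) or repeat 3 (2.53).

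SLC25A1, the citrate carrier, scored 62.5, 55.5 and 49.6 with PD-L1 against 0, 17.96 and 5.92 with IgG. The PD-L1 libraries were close together and the IgG libraries were not. Its difference of 3.48 ± 1.05 (SE, adjusted p = 0.0176 in limma) did not pass without PD-L1 repeat 1 (3.40), repeat 2 (3.48) or repeat 3 (3.56). The difference hardly moved in these fits, while the SE was 1.36, 1.36 and 1.41. SLC25A46, an outer membrane protein of the family that acts in mitochondrial dynamics, scored 30.3, 44.2 and 43.1 against 0, 3.09 and 2.32 (4.06 ± 0.59 SE, adjusted p = 0.00107 in limma). Of the aspartate-glutamate carriers, SLC25A12 scored 33.3, 59.3 and 23.9 against 0, 0 and 3.09 (4.54 ± 0.68 SE, adjusted p = 0.00119 in limma), and SLC25A13 scored 10.3, 7.62 and 13.99 with all IgG scores at 0. SLC25A12 did not pass with rescaled libraries (3.04). The remaining 7 carriers, SLC25A14, SLC25A16, SLC25A31, SLC25A36, SLC25A40, SLC25A43 and SLC25A52, had mean PD-L1 scores of 7.54 (SLC25A43) to 36.2 (SLC25A36). Of these SLC25A36 alone had scores above 0 with IgG. The table held 64 RNAs with solute carrier names in all, with a median difference of 3.43 for the 50 outside SLC25.

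SLC25A52 scored 20.8, 14.7 and 14.7 with PD-L1 and 0 in every IgG library, but reads of a near copy may be among them, which was not tested. It is a gene of 1 exon, a near copy of SLC25A51, which encodes a mitochondrial NAD carrier and was not listed. The coding sequences agree at 97.7% of 894 aligned bases, with 21 differing bases and a longest identical run of 169 bases. The first 150 aligned bases show how few positions tell the RNAs apart, with the differing bases in capitals (GENCODE release 29, GRCh38; SLC25A52 coding bases 31 to 180 from chromosome 18, SLC25A51 coding bases 1 to 150 from chromosome 9, both on the minus strand, 5′ to 3′).
SLC25A52: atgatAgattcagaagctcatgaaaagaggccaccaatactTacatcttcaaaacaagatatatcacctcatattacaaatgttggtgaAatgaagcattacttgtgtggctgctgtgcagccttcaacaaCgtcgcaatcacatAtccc
SLC25A51: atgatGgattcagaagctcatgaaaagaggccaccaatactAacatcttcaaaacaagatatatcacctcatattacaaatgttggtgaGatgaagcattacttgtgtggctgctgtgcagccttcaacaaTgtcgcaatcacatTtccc
Only 5 of these 150 bases differ. How the authors assigned reads that fit both genes is not given in the sources used here, so the SLC25A52 value is uncertain.

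Protein import had 4 RNAs. TOMM20L, a paralogue of the outer membrane receptor TOMM20, scored 142, 150.3 and 122 with PD-L1 against 4.23, 9.00 and 6.17 with IgG, the highest mean PD-L1 score of the 48 at 138 ± 14.3 (SD, n = 3). Its difference of 4.26 ± 0.34 (SE, adjusted p = 0.000121 in limma) fell to 0.85 with rescaled libraries and did not pass. TOMM6, a small subunit of the TOM complex, had the lowest mean PD-L1 score of the 48, from 3.03, 7.26 and 8.14, and was at 0 with IgG (fitted difference 2.75 ± 0.39 SE, adjusted p = 0.00101 in limma). TIMM8B, a chaperone of the intermembrane space, scored 15.8, 13.1 and 29.4 against 0, 4.37 and 4.12 (2.68 ± 0.75 SE, adjusted p = 0.0133 in limma), with repeat 3 the highest, and did not pass without PD-L1 repeat 3 (2.35). TIMM21, a subunit of the TIM23 complex, scored 3.23, 7.26 and 15.8 against 0, 0 and 3.86, so PD-L1 repeat 1 lay below IgG repeat 3. Its difference of 2.30 ± 0.82 (SE, adjusted p = 0.0312 in limma) did not pass without PD-L1 repeat 2 (2.31) or repeat 3 (1.80), or without IgG repeat 1 or repeat 2 (1.92 for both).

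The 6 ribosomal protein RNAs had a median difference of 2.74, and 5 of them had mean PD-L1 scores of 7.90 to 13.4. The exception was MRPL13, of the large subunit, with scores of 139, 126 and 36.7 against 3.32, 2.57 and 4.89 (4.28 ± 0.58 SE, adjusted p = 0.000828 in limma). MRPL1 scored 11.5, 14.9 and 5.13 and was at 0 with IgG (fitted difference 3.42 ± 0.42 SE, adjusted p = 0.000560 in limma). MRPS18C scored 18.2, 15.1 and 6.90 against 0, 5.40 and 0 (2.86 ± 0.83 SE, adjusted p = 0.0155 in limma) and did not pass without PD-L1 repeat 1 (2.60) or repeat 2 (2.73). MRPS21 scored 5.85, 9.43 and 13.3 against 0, 3.34 and 0 (2.63 ± 0.68 SE, adjusted p = 0.00966 in limma). MRPL57 scored 4.84, 6.17 and 12.7 against 0, 2.83 and 0 (2.41 ± 0.66 SE, adjusted p = 0.0121 in limma). Both were highest in PD-L1 repeat 3 and did not pass without it (2.37 and 2.05). MRPS36, which carries the current symbol KGD4 and has since been assigned to the oxoglutarate dehydrogenase complex, scored 3.43, 11.8 and 8.50 against 0, 0 and 2.57. It had a difference of 2.41 ± 0.67 (SE, adjusted p = 0.0130 in limma) and did not pass without PD-L1 repeat 2 (2.09) or repeat 3 (2.30). The rescaled libraries left MRPL1 alone past the threshold in this group.

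PDK3, a kinase that switches off pyruvate dehydrogenase, was the 1 RNA of its group, with scores of 39.2, 31.0 and 12.7 against 0, 5.40 and 0. Its difference of 3.81 ± 0.86 (SE, adjusted p = 0.00592 in limma) did not pass with rescaled libraries (2.29).

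PD-L1 repeat 3 was below both other PD-L1 libraries in 29 of the 48 mitochondrial RNAs (60.4%) and above both in 13 (27.1%), against 63.8% and 23.9% of the table. The median ratio of repeat 3 to the mean of repeats 1 and 2 was 0.726, against 0.716 over the table. It was 0.553 in the respiratory chain group, 0.671 in the carriers, 0.766 in the ribosomal proteins and 0.819 in gene expression. The import RNAs went the other way, at a median of 1.81 with 3 of 4 highest in repeat 3, in a group of 4. Those 3 had low mean PD-L1 scores, 19.4 for TIMM8B, 8.75 for TIMM21 and 6.14 for TOMM6. TOMM20L, at a mean of 138, had a ratio of 0.839. Of low-scoring RNAs in other groups, MRPL57 (2.31) and MRPS21 (1.74) were also higher in repeat 3, while MRPL1 (0.389) and SLC25A43 (0.669) were lower. Single RNAs ranged from 0.183 for NDUFAF7 to 3.00 for TIMM21. With rescaled libraries the median over the 48 was 1.24.

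**Figure D3:**
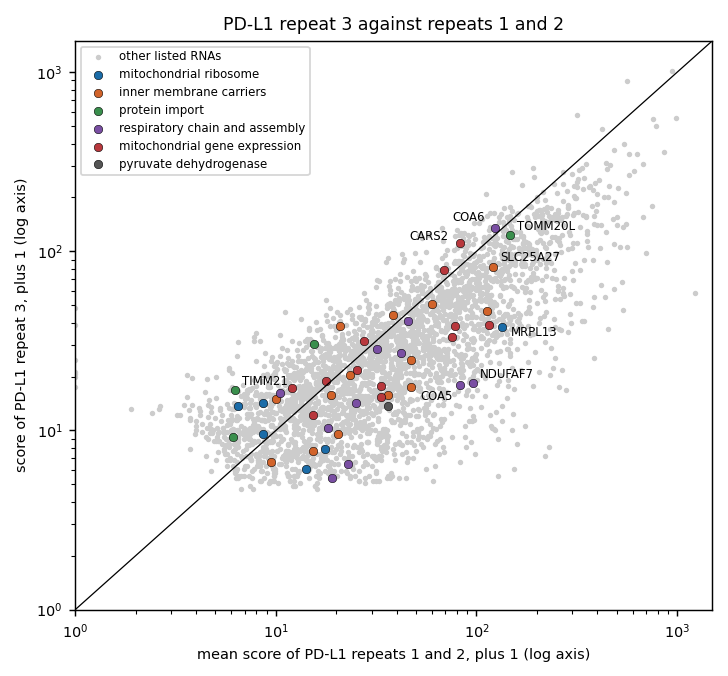
Score of PD-L1 repeat 3 against the mean score of PD-L1 repeats 1 and 2, each plus 1 on log axes, for the 48 mitochondrial RNAs (coloured by role) and the other listed RNAs (grey), with the line of equality. COA6 and CARS2 lie above the line, while COA5 and NDUFAF7 lie far below it.

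The families were unevenly represented in the table. By current symbols, with KGD4 counted for MRPS36, 315 annotated protein-coding genes fall under the name rule, and 48 of them (15.2%) were listed, close to the 15.6% of all 20043 nuclear protein-coding genes. Mitochondrial gene expression stood at 12 of 30 genes, the carriers at 14 of 48, protein import at 4 of 26, the respiratory chain group at 11 of 125 and the ribosome at 6 of 78. Within the respiratory chain, 0 of 38 complex I (NDUF) subunit genes, 0 of 20 genes grouped as cytochrome c oxidase (COX) subunits and 0 of 4 succinate dehydrogenase subunit genes were listed, beside 3 of 8 complex I assembly factors and 4 of 16 cytochrome c oxidase assembly factors. UQC subunit genes stood at 1 of 9 beside 1 of 6 UQCC genes, ATP5 genes at 1 of 20 and SDHAF genes at 1 of 4. The split into subunits and assembly factors was made after the values were seen. Mitochondrial tRNA synthetases stood at 5 of 17 and the cytosolic synthetases at 1 of 20, YARS. RNAs below the authors' 5-fold threshold were not analysed here, so these shares are descriptions and no test of enrichment. 1 more assembly factor, COA8, was listed under its older symbol APOPT1, which the name rule does not take in, with scores of 10.7, 7.98 and 14.2 against 0, 3.60 and 0.

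**Figure D4:**
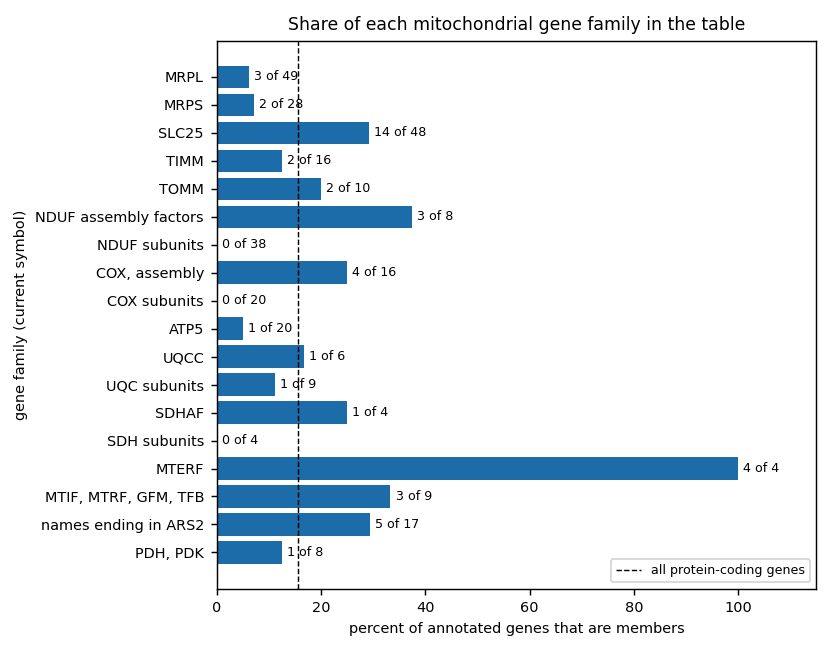
Percent of the annotated genes of each mitochondrial family (current symbols) that are among the 48 listed RNAs, with the counts at the bars and the 15.6% of all protein-coding genes dashed. The MTERF family stands at 4 of 4 and the NDUF subunits at 0 of 38; MRPS36 appears in no bar because of its current symbol.

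Listed genes of these families were longer and had RNAs lower in GC than the family genes that were not listed. The median annotated span was 27.7 kb for the 48 and 13.2 kb for the 266 not listed, and the spliced RNAs had medians of 1.96 and 1.61 kb and a GC content of 43.8 and 49.9%. The same held over all protein-coding genes, with median spans of 59.1 and 22.4 kb and a GC content of 43.7 and 51.1% for listed and not listed genes. Of family genes under 10 kb 7.5% were listed, and of those over 50 kb 29.5%. Among all protein-coding genes these shares were 4.68% and 27.5%. SLC25A1 (3.26 kb) and SLC25A52 (1.32 kb) were exceptions among the carriers, whose median span was 41.0 kb.

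**Figure D5:**
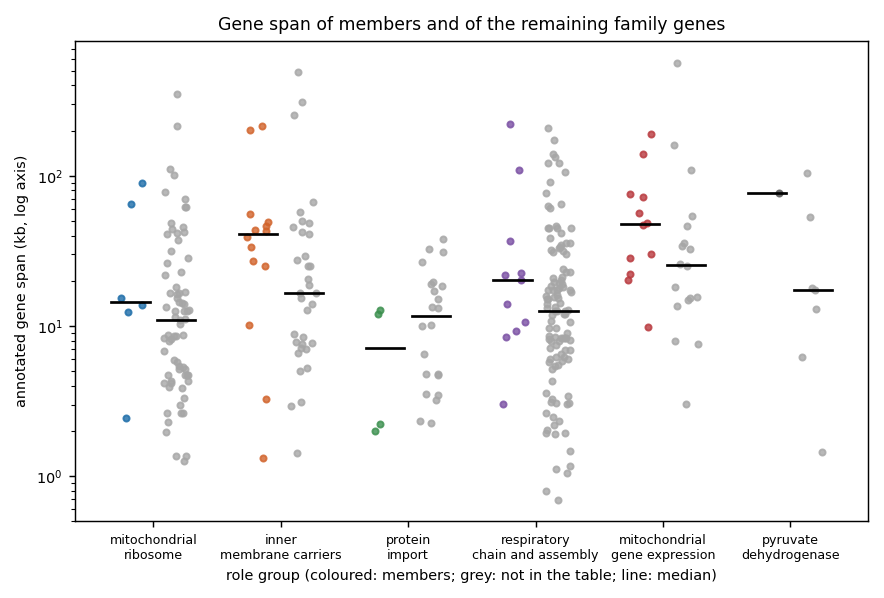
Annotated gene span in kb on a log axis for the listed mitochondrial genes (coloured) and the family genes that were not listed (grey), by role group, with medians as lines. Medians of the listed genes lie above those of the rest in every group except protein import (7.13 against 11.7 kb).

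Many of these genes share their locus with another gene. The share over all listed RNAs was not computed, so the counts do not set these genes apart. In the annotation 18 of the 48 overlap a protein-coding gene on the opposite strand, such as YARS2 with DNM1L over 18161 bases and MRPS18C with ABRAXAS1 over 10219 bases, neither partner being listed. Partners that were listed overlapped 3 of the 48, namely PRKD3 for NDUFAF7, CCNE2 and TP53INP1 for NDUFAF6, and TIAM2 for TFB1M. The kit marks the strand per the labels, but the strand setting of the authors' counting is not given in the sources used here. Reads of such pairs may be mixed, which was not tested. COX15 and TOMM6 overlap annotated protein-coding genes of the same strand over their whole spans (20257 and 2237 bases). TOMM20L and COX14 overlap non-coding genes of the same strand over 10145 and 8261 bases. ATP5F1 and MRPS36 have processed pseudogenes over 95% identical along 442 and 309 bases. The values of these RNAs are also uncertain. Counting annotated genes of any type, 30 of the 48 overlap another gene.

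Mitochondrial genes outside the name rule were represented in part, from lists drawn up for this purpose. Mitochondrial RNA handling had 8 of 30 genes listed, with a median difference of 3.48, and was led by MTPAP, the mitochondrial poly(A) polymerase, with scores of 96.3, 97.7 and 117 against 0, 14.7 and 5.92. TRNT1, which adds CCA ends to tRNAs, had a mean PD-L1 score of 49.8 ± 30.4 (SD, n = 3), and FASTKD3 12.3 ± 7.33 with IgG at 0. Coenzyme Q synthesis had 5 of 13 (median 2.91), led by COQ6, COQ5 and COQ10B. Fatty acid oxidation had 4 of 18 (3.08), led by the dehydrogenases ACADM and ACADSB and by CPT1A, which starts the import of fatty acids. Mitochondrial DNA maintenance and transcription had 3 of 13, TEFM, an elongation factor of mitochondrial transcription at 33.7, 39.5 and 22.9 against 0 in all IgG libraries, POLG2 and TOP1MT (median 4.93). Translation and ribosome assembly factors outside the rule had 3 of 16 (QRSL1, MRRF and NOA1), fusion, fission and cristae 3 of 18 (MFN1, SAMM50 and MIEF2), and proteases and chaperones 3 of 19 (OMA1, CLPX and IMMP2L), of which IMMP2L, like POLG2, is on the authors' DNA damage list. The citrate cycle (16 genes) and mitochondrial quality control (7 genes) had 0 listed. For the 37 genes of the mitochondrial genome itself 0 were found, but they were sought only by names starting with MT-. Whether the authors' annotation scored these genes, or named them otherwise, was not checked. All 30 of these listed RNAs, YARS included, passed as higher with PD-L1, as did 97.7% of the table. With rescaled libraries MTO1, MRRF, MIEF2, PDSS1 and YARS had negative differences, of which that of PDSS1 (-1.15) passed. As deposited, PDSS1 scored 97.7, 110.5 and 56.1 with PD-L1 against 8.76, 23.4 and 18.3 with IgG. Its negative value is thus relative to equal library sums and is no sign of lower scores with PD-L1. The cause was not tested.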

How the data were processed

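Per the file headers, the authors deposited scores, in which all peaks of an RNA in a library were added up. Build hg19, HOMER 4.8.3 and TopHat2 2.0.14 appear in the submitters' processing notes without roles, and nothing used here states peak settings, read numbers or scaling, so the depth behind a score is unknown and no counting interval is given. The authors kept RNAs at 5-fold or more with PD-L1 over IgG, per the series' design text, so a test on these libraries is no independent evidence of enrichment. The RNAs described and the lists used were chosen with earlier results of these data known.

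Scores were taken as deposited and log2(score + 1) was fitted with limma 3.58.1 in R 4.3.3 over all 3152 RNAs and 6 libraries, with Benjamini-Hochberg adjustment. The log2 scale understates differences of low scores. The fit was tested on simulated data with normal noise of equal spread in both groups. Those data held no scores fixed at 0 and no selection by fold, so they do not vouch for the fit on this table. RNAs described in full are, in each role group, up to 4 of highest mean PD-L1 score, the one of smallest difference and any whose groups overlap; ATP5F1, SLC25A12 and MRPS36 were added after their values were seen. Gene names, spans, exons, GC content and overlaps come from RefSeq and GENCODE release 29 (GRCh38), joined by Entrez ID, and no coordinates were carried to hg19. Near copies were sought with BLAST+ 2.17.0 at 95% identity over 300 bases. Alternatives were other pseudocounts, treatment of 0, rescaled libraries, a filter at a mean PD-L1 score of 10, limma-trend, a replicate block, leaving out each library, and averaging PD-L1 repeats 1 and 2, the last chosen after seeing the data. In the other lists the 3 with the largest difference were named. The gene ontology table was not used. The count of mesenchymal markers is not reported here.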

Additional observations from a re-analysis of the deposited data

How the results depend on the processing

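All 48 mitochondrial RNAs passed with scores of 0 set to the smallest score, limma-trend and the replicate block, as did the 42 left by the filter on low scores. The number that passed was 43 with a pseudocount of 0.1, 30 with 0.01, 18 with rescaled libraries and 43 with PD-L1 repeats 1 and 2 averaged. Leaving out 1 library gave 39 to 48. Such fits have less power, so a call can be lost with the difference nearly unchanged, as for SLC25A1. The table as a whole went from 3078 higher to 990 higher and 60 lower with rescaled libraries, and to 2298 with a pseudocount of 0.01. The median difference of the 48 was 3.62, and 5.51 and 7.55 with pseudocounts of 0.1 and 0.01, 3.22 with 0 set to the smallest score, 1.91 with rescaled libraries and 3.42 to 3.86 with 1 library left out. Of the differences that turned negative with rescaled libraries, SLC25A37 was at -0.99, YARS2 at -0.89, UQCR10 at -0.18 and CARS2 at -0.12; the cause was not tested. The median ratio of PD-L1 repeat 3 to repeats 1 and 2 was 0.726, 1.24 with rescaled libraries and 0.595 for RNAs with a mean score of 10 or more.

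Same-numbered PD-L1 and IgG libraries did not deviate together, with correlations of -0.12, 0.071 and -0.079 over the RNAs. With many IgG scores at 0 these values cannot exclude a shared origin, and the labels do not state one, so pairing is unknown. With the replicate block 48 mitochondrial RNAs and 3091 listed RNAs passed, against 48 and 3078 without it.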

Other observations

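Within the 48 mitochondrial RNAs the difference on the log2(score + 1) scale was set against annotated features of the gene. The Spearman correlation was -0.45 with the GC content of the spliced RNA, 0.36 with gene span, 0.38 with the number of exons and 0.088 with spliced length, over 48 RNAs that share the same 6 libraries. Over the 3139 listed RNAs with annotation these values were -0.16, 0.16, 0.23 and 0.089. With rescaled libraries they were -0.53, 0.33, 0.30 and 0.046 among the 48 and -0.093, 0.063, 0.023 and -0.013 over the table. For the mean PD-L1 score of the 48 they were 0.085, 0.058, 0.17 and 0.11, in the same order of features. Among the mitochondrial genes with the highest GC content were SLC25A1 (65.6%), SLC25A28 (58.1%), CARS2 (56.4%), COX14 (55.5%) and TARS2 (54.6%), and the lowest was SLC25A40 (34.2%).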
